A study of Mus musculus with 6 samples.

Results

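Matrix glycoproteins and proteoglycans are non-collagenous proteins of the matrix around cells, secreted by fibroblasts and by other cells. The set holds fibronectin, periostin, tenascins, thrombospondins, elastic fibre proteins and proteoglycans with small or large cores. Its 51 genes were taken by symbol from a list, and 50 of them were found among the 19078 genes of the deposited table. *Mfap4* was not found under its symbol or its older name and was not analysed here. The cells are pooled immortalized mouse fibroblasts (MF) that were made from embryonic fibroblasts with a conditional *Gpx4* knockout and Cre-ERt2, and both groups share this background. In *Ms4a15* OE cells a CRISPR activation system with a guide raises *Ms4a15* at its own locus. Control cells carried an empty lentivirus according to the methods, while the labels give their genotype as wild type. Poly(A)-selected RNA was sequenced from 3 *Ms4a15* OE libraries and 3 control libraries.

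Each gene has a mean normalized count, which is the authors' mean over all 6 libraries of reads divided by a size factor that corrects for depth. This mean pools *Ms4a15* OE with control. The columns that set the groups against each other hold the authors' own comparison and were not used, so no difference between *Ms4a15* OE and control is given for any gene, and no SD or test over libraries was possible. A gene that is on in one group alone has a pooled mean below its level in that group. In bulk RNA, fewer cells that express a gene and less RNA per cell cannot be told apart. Means of different genes are compared per kilobase of exon, since longer transcripts give more reads, and all other values are mean normalized counts.

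In connective tissue, adhesive glycoproteins such as fibronectin bind integrins and collagen, and matricellular proteins modulate how cells attach and respond to growth factors. Fibrillins, elastin, fibulins and EMILINs build elastic fibres, on which latent TGF-beta binding proteins store the growth factor. Proteoglycans carry glycosaminoglycan chains on a core protein. The small leucine-rich ones bind collagen fibrils, and the large ones hold water or, as perlecan, stand in basement membranes.

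Whole-series facts that bear on these levels are few. The 10 highest genes took 5.01% of the summed mean normalized counts. Size factors of the 6 libraries ran from 0.887 to 1.14, a 1.28-fold range. *Ms4a15*, the targeted gene, had a mean of 638. Fibroblast markers were all at or above 10, against 67.7% of all genes, and ran from 278 for *Pdgfra* to 135155 for *Col1a2*. *Epcam*, a defining gene of epithelium, had 0.176, whereas *Krt14* had 170.4, and 2 of 8 epithelial markers were at or above 10. Among myeloid markers, 4 of 5 genes in the table were at or above 10, from 5.79 for *Itgam* to 534 for *Lyz2*, and the leukocyte gene *Ptprc* had 11.1. Of 5 endothelial markers 2 reached 10, with *Cdh5* at 107 and *Tie1* at 0.188, and of 5 smooth muscle and pericyte markers 2 did, with *Acta2* at 380.0 and *Rgs5* at 0.328. *Sox9* and *Col2a1*, genes of cartilage, had 1106 and 349, but the cartilage markers *Matn3* and *Col9a1* had 6.32 and 1.38. Thus 2 of 4 cartilage markers reached 10, and none of 3 bone markers did. Whether other cells contributed to the matrix genes was not tested.

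By means not divided by length, matrix genes exceeded all genes at the top of the range and lay near the background at the bottom. Some of the highest have many bases of exon, such as *Vcan* with 14462, and no count at the top was made per kilobase. Of the 50 genes, 10 (20.0%) had a mean of 10000 or more, against 4.20% of all genes. Below 1 were 10 (20.0%), against 16.2% of all genes, and 11 (22%) lay in the lowest 25% of genes. A mean of at least 10 was reached by 36 matrix genes (72%), against 67.7% of all genes. The median matrix gene had 245, and the median of all genes was 237. Quartiles of the matrix genes were 7.43 and 3467, and those of all genes 3.34 and 1909. Per kilobase the median matrix gene was lower than that of the 16544 genes with an exon length, with 44.6 against 108 normalized counts per kilobase. Among the highest 1% of genes by mean were 6 matrix genes (12%). Together the 50 genes held 1.06% of all normalized counts, of which *Fn1*, *Spp1* and *Sparc* took 53.0% and the 10 highest 90.8%.

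**Figure D1:**
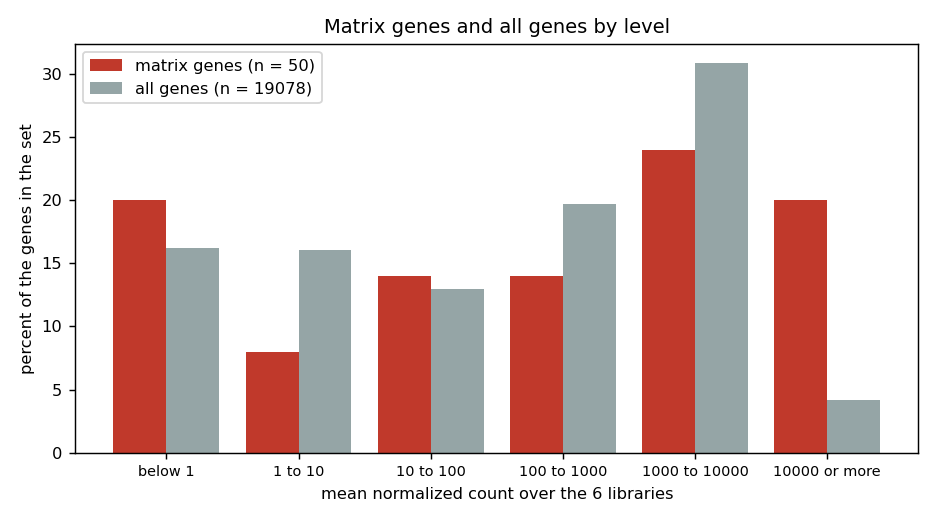
Percent of genes (vertical axis) in 6 ranges of the mean normalized count over the 6 libraries (horizontal axis), for the 50 matrix genes and for all 19078 genes. By means not divided by length, the matrix genes exceed all genes most in the highest range, with 20.0% against 4.20%.

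Among adhesive glycoproteins, *Fn1* had the highest mean of the set, and per kilobase it came after *Spp1* and *Sparc*. It encodes fibronectin, which links integrins to collagen, and had a mean of 114243, rank 16 of all genes. On GRCm38, *Fn1* runs from 71585520 to 71653200 of chromosome 1 in reverse orientation, with 11685 bases of exon. *Ecm1*, whose product binds perlecan and fibulins, had 3557, and *Tgfbi*, which encodes an integrin ligand related to periostin, 2196. *Vtn*, the gene of the serum adhesion protein vitronectin, had 0.328 and rested on 2 reads in all. Thus 3 of 4 adhesive genes were at or above 10, against 67.7% of all genes.

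Matricellular proteins spanned the whole range, with 10 of 14 genes at or above 10, near the 67.7% of all genes. *Spp1*, which encodes the integrin-binding phosphoprotein osteopontin, had 70081, rank 30 of all genes, at 104435118 to 104441050 of chromosome 5 (forward strand). *Sparc*, the gene of a collagen- and calcium-binding protein, had 46152, at 55394500 to 55423183 of chromosome 11 (reverse strand). Its relative *Sparcl1* had 0.806. *Smoc1* and *Smoc2*, the other genes of the set from this family with calcium-binding domains, had 1326 and 11.9, a 221-fold difference per kilobase.

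Thrombospondins are calcium-binding glycoproteins, of which thrombospondin-1 activates latent TGF-beta. *Thbs1* had 22832, at 118111876 to 118127133 of chromosome 2 (forward strand). Beside it, *Thbs3* had 2218, *Thbs2* 573 and *Thbs4* 0.188. *Comp*, the family's cartilage gene, had 9.38. Per kilobase the order was the same, with *Thbs1* 8.18-fold above *Thbs3* and *Thbs3* above *Thbs2* (460 and 81.8 normalized counts per kilobase). Exons of *Thbs3* overlap those of *Mtx1* on the other strand over 318 of 4823 bases, and the strand setting of the authors' counting is not given in the sources used here.

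Promoter sequence of the highest and the lowest matrix gene with an entry in the RefSeq promoter table is given to show both ends of the range. It covers the 250 bases before the annotated start on GRCm38.p6, 5′ to 3′ on the strand of the gene, with each CG dinucleotide in capitals. That of *Spp1*, at chr5:104434861-104435110 on the forward strand, has 3, and 29.0% of the 32851 promoters of the table have fewer. That of *Thbs4*, at chr13:92794819-92795068 on the reverse strand, has 19, and 80.3% have fewer. The median promoter has 6. Only 36 of the 51 genes (70.6%) have an entry, so the set as a whole was not compared with other promoters.
Spp1: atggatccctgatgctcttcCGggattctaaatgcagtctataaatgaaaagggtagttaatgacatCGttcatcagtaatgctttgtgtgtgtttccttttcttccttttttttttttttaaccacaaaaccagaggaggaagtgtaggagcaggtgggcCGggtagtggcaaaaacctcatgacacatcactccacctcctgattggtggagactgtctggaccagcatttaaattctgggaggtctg
Thbs4: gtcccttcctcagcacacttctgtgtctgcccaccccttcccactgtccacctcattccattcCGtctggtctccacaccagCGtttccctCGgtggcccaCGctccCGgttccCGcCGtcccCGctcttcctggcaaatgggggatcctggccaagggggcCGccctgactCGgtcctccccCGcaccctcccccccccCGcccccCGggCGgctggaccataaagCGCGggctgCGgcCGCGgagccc

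Of the tenascins, *Tnc*, which marks tissue under remodelling, had 11077, at 63959785 to 64047015 of chromosome 4 (reverse strand), and *Tnxb*, which supports collagen deposition, 175, a 99.7-fold difference per kilobase. *Postn*, the gene of periostin, a partner of fibronectin and tenascin-C in fibrous matrix, had 133, below the median of all genes. *Cthrc1*, whose product is secreted by activated fibroblasts, had 0.178. These 4 genes thus ranged from more than 10000 to a single read in the same libraries.

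**Figure D2:**
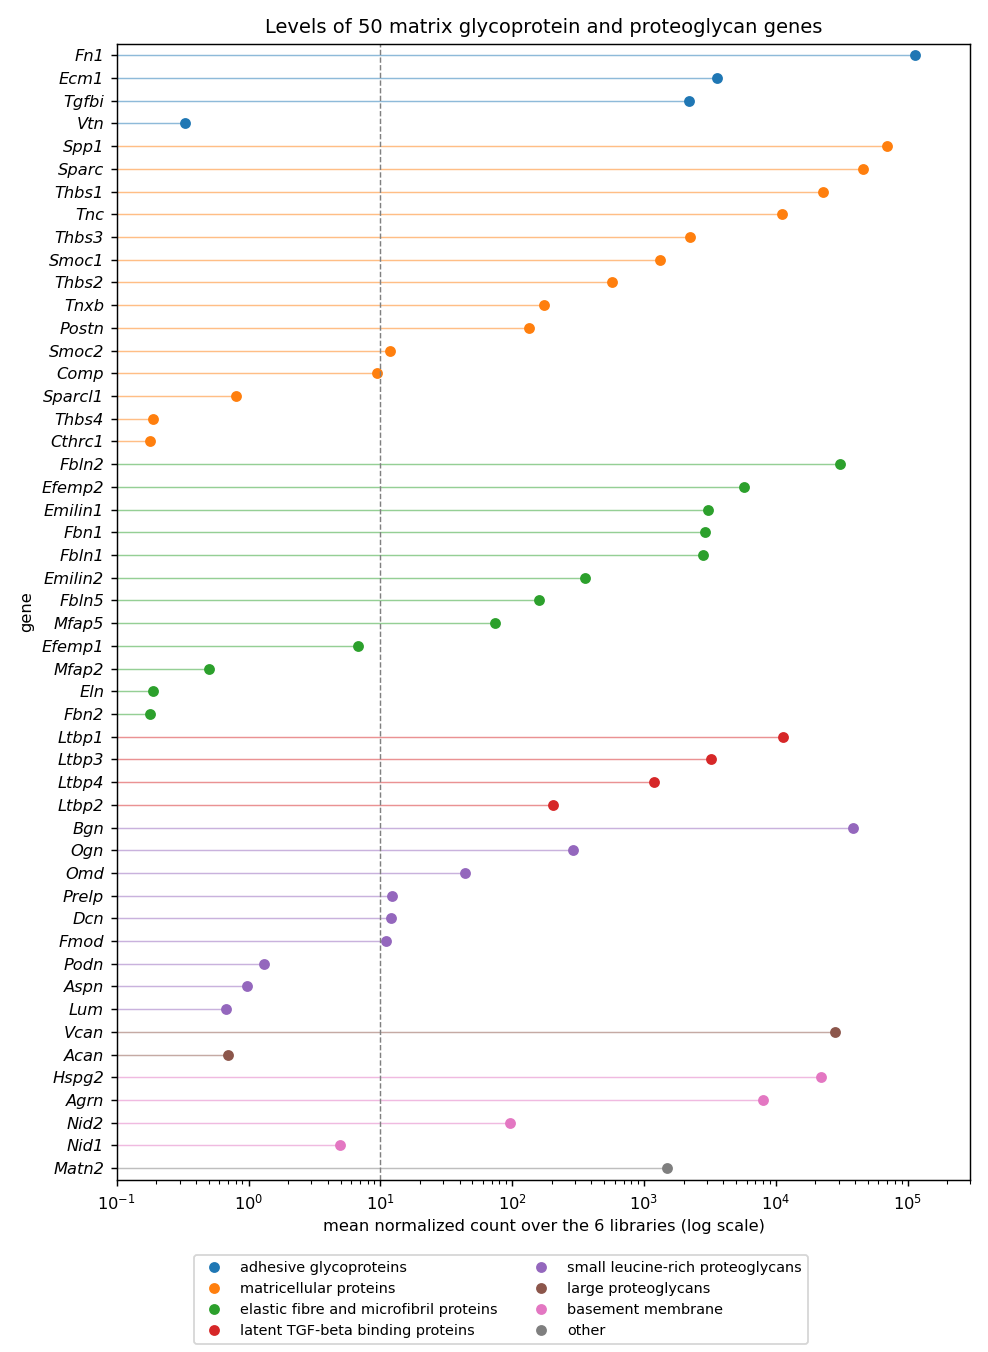
Mean normalized count over the 6 libraries (log axis) of each of the 50 matrix genes, 1 point per gene with a line from the left edge, grouped and coloured by role, with a dashed line at 10. Every role except the latent TGF-beta binding proteins and the lone gene of the last group holds a gene below 10.

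Elastic fibre and microfibril genes ranged from a high level of *Fbln2* to 1 read each of *Eln* and *Fbn2*. *Fbln2*, the gene of fibulin-2, which bridges fibrillin, elastin and basement membrane proteins, had 30800, at 91212455 to 91272540 of chromosome 6 (forward strand), and was the highest of the 12. *Efemp2*, or fibulin-4, which is needed for elastic fibre assembly, had 5712. *Emilin1* had 3077, *Fbn1*, the gene of fibrillin-1, the main microfibril protein of adult tissue, 2914 and *Fbln1* 2803. *Emilin2* had 355 and *Fbln5*, another assembly factor, 161. The microfibril-associated genes were low, with 73.8 for *Mfap5* and 0.498 for *Mfap2*, and *Efemp1* had 6.78. *Eln*, the gene of elastin itself, had 0.188 and *Fbn2*, the fibrillin of embryonic microfibrils, 0.178.

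Paralogs within these families differed widely. *Fbln2* stood 7.54-fold above *Fbln1* per kilobase and *Fbln1* 27.5-fold above *Fbln5*. *Efemp2* stood 453-fold above *Efemp1* per kilobase, and *Emilin1* 9.66-fold above *Emilin2*. Exons of *Efemp2* share 173 of 3788 bases with *Mus81*, and those of *Fbn1* share 2442 of 12128 bases with the predicted gene *Gm9913*, in both cases on the other strand.

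All 4 genes of latent TGF-beta binding proteins had a mean of at least 10, against 67.7% of all genes. *Ltbp1* had 11364, at 75005568 to 75392512 of chromosome 17 (forward strand). *Ltbp3* had 3199, *Ltbp4* 1197 and *Ltbp2*, the one member of the family that does not bind latent TGF-beta, 202. Per kilobase *Ltbp1* was 3.01-fold above *Ltbp3*, which was 1.91-fold above *Ltbp4*.

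Among small leucine-rich proteoglycans, biglycan stood far above the rest. *Bgn* had 38734, rank 99 of all genes, at 73483602 to 73495933 of chromosome X (forward strand). *Dcn*, the gene of decorin, its closest relative and often the most abundant proteoglycan of tissue fibroblasts, had 12.1, a 3065-fold difference per kilobase. *Ogn* had 287, *Omd* 44.2, *Prelp* 12.3 and *Fmod*, or fibromodulin, 11.1. *Podn*, *Aspn* and *Lum*, the gene of lumican, had 1.31, 0.976 and 0.675. The median of the 9 genes, 3.34 normalized counts per kilobase, was the lowest of the 8 roles.

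Several of these genes lie side by side. *Aspn*, *Omd* and *Ogn* follow each other on the forward strand of chromosome 13, from 49544443 to 49624501 in all, with means of 0.976, 44.2 and 287. Per kilobase *Ogn* stood 5.69-fold above *Omd*, and *Aspn* rested on 6 reads. *Ecm2*, on the other side of *Aspn* and no member of the set, had 8.60. *Dcn* and *Lum* adjoin on chromosome 10 and had 12.1 and 0.675, and *Epyc*, farther along the same cluster, had 0.188. *Prelp* and *Fmod* on chromosome 1 had 3.41 and 3.34 normalized counts per kilobase, and *Optc*, which lies next to *Prelp*, had a mean of 3.01.

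*Vcan* and *Acan*, the pair grouped here as large proteoglycans, lay at opposite ends. The proteoglycan genes *Hspg2* and *Agrn* were grouped with the basement membrane. *Vcan*, the gene of versican, a hyaluronan-binding proteoglycan of provisional matrix, had 28025, at 89655312 to 89742509 of chromosome 13 (reverse strand). *Acan*, the gene of aggrecan, its counterpart in cartilage, had 0.700. In the basement membrane group, *Hspg2*, which encodes perlecan, had 21981, at 137468769 to 137570630 of chromosome 4 (forward strand), and *Agrn*, which encodes agrin, 8014. The nidogens, which link laminin to collagen IV, were low, with 96.8 for *Nid2* and 4.98 for *Nid1*. Exons of *Nid2* share 437 of 5174 bases with *Rtraf* on the other strand. *Matn2*, a filament-forming adaptor protein and the only matrilin of the set, had 1499.

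Depth at the bottom of the range was read from the means themselves. A single read in a single library gives a mean between 0.147 and 0.188, depending on its size factor, and all 3097 genes with a mean below 1 matched a whole number of reads in each library. The libraries are lettered A to F by rising size factor, and their group was not assigned. *Eln* and *Thbs4* each rested on 1 read in library A, and *Cthrc1* and *Fbn2* each on 1 read in library B. *Vtn* had 1 read in each of libraries B and E, and *Mfap2* 1 in each of A, D and F. *Lum* had 4 reads, 1 in each of A, B, D and F. None of these genes had more than 1 read in any library.

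The next 4 genes had up to 4 reads in a library. *Acan* had 4 reads, 2 in A and 1 in each of B and F, with an exact 95% Poisson interval from 1.09 to 10.2 reads. *Sparcl1* had 5, with 1 in each of B and C and 3 in E. *Aspn* had 6, with 2 in each of C and D and 1 in each of E and F. *Podn* had 8, with 2 in each of B and C and 4 in E, and an interval from 3.45 to 15.8. For 1 read the interval runs from 0.0253 to 5.57. These intervals cover counting error only, and differences among these 11 genes were not tested.

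**Figure D3:**
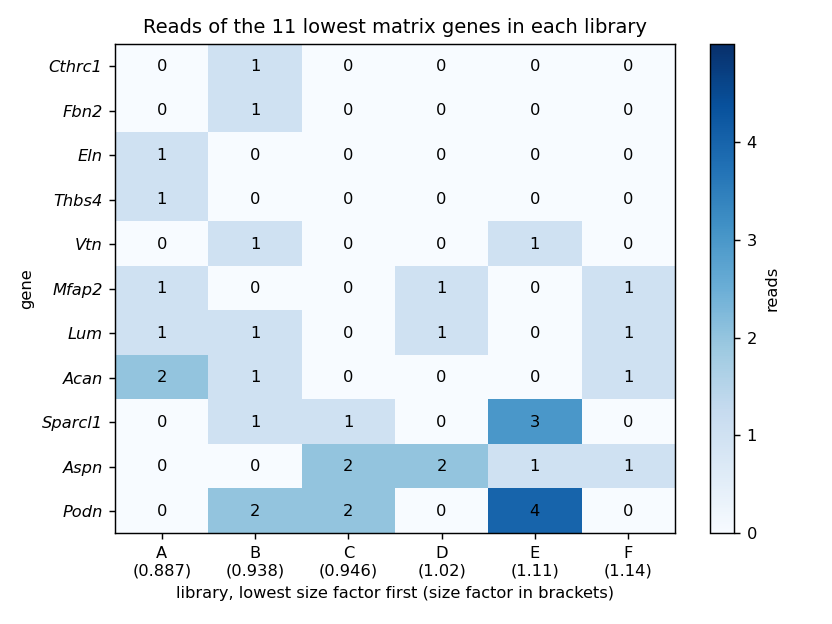
Reads (numbers and shade) of the 11 matrix genes with a mean below 2 (rows) in each of the 6 libraries (columns), which are ordered by size factor and not assigned to a group. No cell holds more than 4 reads, and the lowest 7 genes have at most 1 read in any library.

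Divided by length, the order at the top changed. *Spp1*, with 1648 bases of exon, came to 42525 normalized counts per kilobase and *Sparc* to 12184, both above *Fn1* at 9777. *Bgn* followed with 6351, *Fbln2* with 4835 and *Thbs1* with 3760. Divided by coding length instead, *Bgn* came to 34990 and stood above *Fn1* at 15374. *Spp1* alone made up 45.6% of the summed level per kilobase of exon. The lowest per kilobase were *Fbn2* at 0.0134, *Eln* at 0.0232 and *Thbs4* at 0.0572. Matricellular genes held 65.2% of the summed level per kilobase, adhesive genes 12.6%, elastic fibre genes 8.53% and small leucine-rich proteoglycans 6.96%. Basement membrane genes, with *Hspg2* and *Agrn* among them, held 2.59%, large proteoglycans 2.08%, latent TGF-beta binding proteins 1.74% and *Matn2* 0.257%. Without division by length the adhesive genes held 27.6% and the matricellular genes 35.5%. The lead of the matricellular genes leaned on *Spp1*. Without it they held 36.1% per kilobase against 23.2% for adhesive genes, and not divided by length they held 23.1% against 32.9%, so that the order turned.

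**Figure D4:**
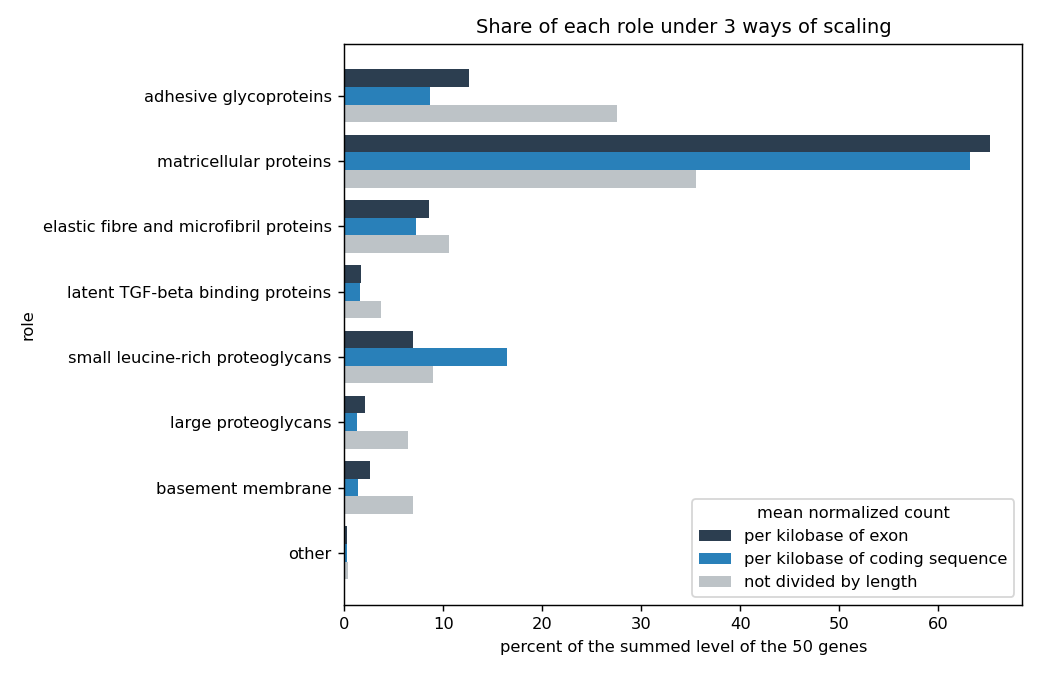
Percent of the summed level of the 50 matrix genes (horizontal axis) that each role holds (vertical axis), with the mean normalized count divided by exon length, divided by coding length or not divided. With all 50 genes, matricellular genes hold the most under each scaling, from 35.5% to 65.2%, but without *Spp1* and not divided by length they hold 23.1%, below the adhesive genes at 32.9%.

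The genes that work with these proteins were described from lists, and 67.7% of all genes were at or above 10. All 9 fibrillar collagen genes were at or above 10, with 135155 for *Col1a2* and 66981 for *Col1a1*. These 9 held 0.261% of the summed level per kilobase of the 16544 genes with an exon length. The 50 matrix genes held 0.846% of it. Not divided by length, the shares of all genes were 0.664% and 1.06%. All 9 cross-linking genes were at or above 10 as well, led by *Plod3* at 23692 and *Lox*, the lysyl oxidase that cross-links collagen and elastin, at 22336, although *Eln* rested on 1 read. Of 18 receptor genes 14 were at or above 10. *Itgb1* had 49090, *Cd44*, the hyaluronan receptor, 24793, *Itgav* 13596 and *Itga5*, the fibronectin receptor chain, 9583, while *Itga4*, *Itga8*, *Itga9* and *Cd36* were below 2. *Itga8* and *Itga9* chains bind osteopontin and tenascin-C among other ligands.

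Basement membrane partners were divided, with 11 of 17 at or above 10, near the 67.7% of all genes. *Lamc1* had 13660 and *Lama5* 8207, whereas *Col4a1* and *Col4a2*, the common collagen IV chains, had 10.7 and 8.34 and *Col4a5* and *Col4a6* 3329 and 1566. Beside these, *Hspg2* and *Agrn* were high and *Nid1* was low. Of the 17 genes of glycosaminoglycan chain synthesis in the table, 15 were at or above 10, among them *Ext1* at 4742, which polymerizes the heparan sulfate chains of perlecan and agrin, and *Chsy1* at 2848, which extends chondroitin sulfate, carried by versican and biglycan. Proteases of these proteins included *Mmp14* at 9403 and *Mmp2* at 8821, and 8 of 9 in the table reached 10. Medians per kilobase were 44.6 for the matrix genes, 418 for fibrillar collagens, 670 for cross-linking enzymes, 795 for receptors, 248 for chain synthesis, 95.8 for proteases and 8.47 for basement membrane partners, against 108 for the 16544 genes with an exon length.

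**Figure D5:**
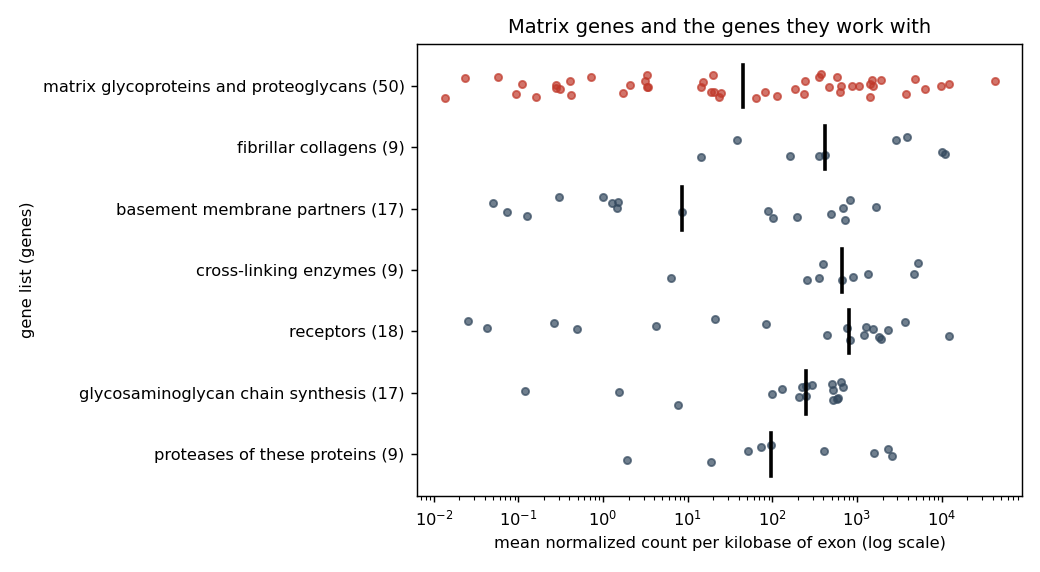
Mean normalized count per kilobase of exon (log axis) of the matrix genes and of 6 lists of genes that work with them, 1 point per gene, with a black bar at the median. The matrix genes ran from 0.0134 (*Fbn2*, 1 read) to 42525, around a median of 44.6. They form the longest list, with 50 genes against at most 18, and a range widens with more genes.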

How the data were processed

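Total RNA of MF cells was poly(A)-selected and made into libraries for paired-end sequencing. The methods name STAR and HTSeq-count against mm10 with UCSC genes, whereas the labels also list TopHat, Cufflinks and Cuffdiff. The deposited table holds a signal per gene, the mean normalized count, which the authors computed with DESeq2 over all 6 libraries (3 *Ms4a15* OE and 3 control). Its other columns hold the authors' own comparison of the groups (fold change, its standard error, p-value, adjusted p-value and direction) and were not used. Reads of single libraries were recovered for genes with a low mean alone, with no group, so edgeR's test was not run. Nothing in the labels says whether replicates were separate cultures.

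Means were divided by exon length (union of exons, GENCODE vM21 on GRCm38), known for 16544 genes that hold 97.4% of the summed means and for all 50 matrix genes. A gene was counted as expressed at a mean of at least 10. The authors' size factors were recovered from the most frequent values of genes with 1 read, and means below 2 were matched to whole reads per library within 2e-08 per read. Tested on simulated data for 6 libraries, this recovered the reads of 96.7% of 3201 genes, left 3.34% without an answer and got 0 wrong. Intervals are exact Poisson intervals at 95%. Symbols are as deposited, and 25 had been turned into dates. Every matrix gene was accounted for by role, with fuller values for the 10 highest means, the 3 highest and 3 lowest per kilobase, paralogs and gene clusters. The genes and lists were chosen with earlier results of these data known. Alternatives changed the minimum mean, the reference genes, the length and the highest gene, and leaving out *Spp1* was added after seeing the data. Python 3.11.15, numpy 2.4.6, pandas 2.3.3, scipy 1.17.1 and matplotlib 3.10.9 were used. Protein sequences were not analysed here.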

Additional observations from a re-analysis of the deposited data

How the results depend on the processing

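The count of matrix genes at or above the minimum mean was 36 at 10, 40 at 1, 29 at 100 and 36 with older symbols matched. The share of all normalized counts, 1.06%, was 0.785% without *Fn1* and 0.846% per kilobase among genes with an exon length. The median matrix gene stood above 50.2% of genes. Against genes with a mean of at least 1 this was 40.6%, against genes with at least 10 it was 26.4%, and per kilobase it was 42.0%, the first 2 because fewer low genes were left in the reference. Shares of the roles moved under each scaling. Not divided by length, they were 27.6% for adhesive, 35.5% for matricellular, 10.5% for elastic fibre, 3.67% for latent TGF-beta binding, 8.99% for small leucine-rich, 6.44% for large proteoglycan and 6.92% for basement membrane genes and 0.344% for *Matn2*. Per kilobase of coding sequence, in the same order, they were 8.64%, 63.2%, 7.25%, 1.55%, 16.5%, 1.30%, 1.40% and 0.243%. Per kilobase of exon without *Fn1* they were 2.39%, 72.9%, 9.53%, 1.95%, 7.77%, 2.32%, 2.90% and 0.287%. Leaving out *Spp1*, the highest gene per kilobase, was chosen after seeing the data. The shares were then 23.2%, 36.1%, 15.7%, 3.20%, 12.8%, 3.82%, 4.76% and 0.471% per kilobase of exon. Not divided by length they were 32.9%, 23.1%, 12.6%, 4.37%, 10.7%, 7.68%, 8.24% and 0.411%, with adhesive genes above matricellular genes. No paired analysis was possible because each level is a mean over both groups and comes from no test. For the same reason the planned fits by edgeR and pydeseq2, with a replicate block and with each library left out were not run. A union of exons holds rarely used exons, which lowers the level per kilobase. The 11 genes with a mean below 2 rest on 1 to 8 reads, and depth limits what can be said of them.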
